A study of Mus musculus with 8 samples.

Results

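The Polycomb and trithorax complex genes are 43 genes, out of 48440 in the deposited tables, that encode the subunits of Polycomb repressive complexes 1 and 2 (PRC1 and PRC2), of the deubiquitinase complex PR-DUB and of the KMT2 (trithorax) complexes. They were taken from a list of names and not by their values. Of the 43, 42 were found by the gene name in the deposited tables and Epop by its gene ID, since the tables list it as E130012A19Rik. The RNA came from mouse gonads at embryonic day 11.5 in 4 groups of 2 libraries: XY Kdm6b-null, XY wild type, XX Kdm6b-null and XX wild type. Kdm6b encodes a demethylase that removes methyl groups from lysine 27 of histone H3. Each library pooled 2 pairs of gonads, the labels name neither the allele nor the strain, and the tissue was not treated. All values below are normalized counts, that is, counts per gene divided by 1 scaling factor per library, and the XX and XY libraries were scaled separately, so that levels are not tested between the sexes.

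Polycomb proteins keep genes silent. PRC2 methylates lysine 27 of histone H3 through its catalytic subunit EZH2 or EZH1, and PRC1 ubiquitinates histone H2A through RING1 or RNF2, with CBX proteins of the canonical complexes binding the methylated lysine. KMT2 complexes, the mammalian trithorax group, methylate lysine 4 of histone H3 and counteract Polycomb. In the mouse gonad, Cbx2 is known for its part in testis determination: XY mice without it show male-to-female sex reversal.

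The level of the targeted gene checks the labels. Kdm6b had 1238 and 1037 normalized counts in XY Kdm6b-null gonads, against 3399 and 3181 in XY wild type gonads. In the other sex it had 1249 and 1125 normalized counts in XX Kdm6b-null gonads, against 2218 and 2796 in XX wild type gonads. In both sexes the null libraries lay well below the wild type ones without overlap, and in the authors' deposited table the log2 fold changes of Kdm6b-null over wild type were -1.53 in XY (adjusted p = 8.2e-25) and -1.08 in XX (adjusted p = 7.1e-07). The limma fits described below gave Kdm6b -1.54 in XY (adjusted p = 0.12) and -1.07 in XX (adjusted p = 0.19). The targeted gene was thus not called by limma in either sex, so that a gene not called there may still differ. Transcript remained in the null libraries, and the labels do not say which part of the gene was deleted. The related demethylase gene Kdm6a, which is X-linked, had 1351 and 1289 normalized counts in XY Kdm6b-null gonads, against 1342 and 1429 in XY wild type gonads, with overlapping groups.

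Library totals ran between 19107103 and 19828638 counts on genes. The labels name pre-Sertoli cells in XY and pre-granulosa cells in XX, yet the tissue is given as gonad and no sorting is described. The summed level of 6 erythroid markers, between 55335 and 221951 normalized counts, exceeded that of 6 gonadal somatic markers, between 9945 and 17286, in every library. The Foxl2 and Amh genes, which mark granulosa and Sertoli cells, stayed at or below 13.58 and 15.61 normalized counts. In XY the gonadal somatic list had a median log2 fold change of -0.43 and the pre-Sertoli list of -1.02, and in XX the endothelial list had 0.60. Cbx2 is also on the gonadal somatic list. In bulk tissue, fewer cells of a type and less RNA per cell cannot be told apart. The 2 XX wild type libraries stood apart from each other: their log2 values correlated with r = 0.9632 across genes, against 0.9797 to 0.9850 within the other 3 groups. In XX wild type replicate 1, mitochondrial genes took 3.12% of the counts, against 1.90% to 2.55% in the other 7 libraries. Replicate 2 was unusual too: Nkx2-1 had 224.6 normalized counts there and 0 in the other 7 libraries, and its erythroid sum, 221951, was the highest. The XX fold changes of the genes described are given with and without replicate 1. Those without it rest on replicate 2 as the only wild type library.

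All 43 genes were expressed and passed the filter of a mean of at least 10 normalized counts in each fit. Together they took between 0.439% and 0.502% of a library's counts. Their median level lay between 1527 and 2092 normalized counts per library, against 379.8 to 399.4 for all genes fitted, so that most were measured with more reads than the typical gene.

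The sequences at the gene starts are shown for Ring1 and Phc2, the genes with the highest fold change in XY and in XX, to show the CpG content around their starts. Of the 43 genes, 37 had a promoter sequence (250 bases before to 50 after a transcript start) in the RefSeq table of build GRCm38.p6. Their median was 28 CpG dinucleotides, with a range of 1 in Ncoa6 to 56, against a median of 21 over the 11647 fitted genes with a promoter. Ring1 has 1 start, with 37 CpG, on the minus strand at chr17:34024631-34024930. Phc2 has 3 starts in the table, with 19, 2 and 45 CpG, and the first is printed, on the plus strand at chr4:128654452-128654751. Capitals mark CpG dinucleotides.
Ring1: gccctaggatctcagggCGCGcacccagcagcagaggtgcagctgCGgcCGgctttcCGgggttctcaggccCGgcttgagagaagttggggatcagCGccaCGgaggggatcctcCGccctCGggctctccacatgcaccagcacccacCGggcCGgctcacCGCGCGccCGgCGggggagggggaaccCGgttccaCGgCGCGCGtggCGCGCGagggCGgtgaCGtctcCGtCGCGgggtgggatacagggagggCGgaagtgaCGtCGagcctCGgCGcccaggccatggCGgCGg
Phc2: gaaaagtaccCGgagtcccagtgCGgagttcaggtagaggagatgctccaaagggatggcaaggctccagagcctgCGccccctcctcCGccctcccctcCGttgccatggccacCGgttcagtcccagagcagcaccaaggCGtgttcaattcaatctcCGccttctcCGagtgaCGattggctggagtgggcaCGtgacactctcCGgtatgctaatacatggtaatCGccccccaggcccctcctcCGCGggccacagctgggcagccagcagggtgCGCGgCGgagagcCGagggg
An E2F-type motif, searched on both strands as TTTCCCGC, TTTCGCGC, TTTGCCGC or TTTGGCGC, was present in the promoters of Ezh2, Suz12 and Phf19, that is 8.11% of the 37, against 4.42% of the 11647 genes.

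The genes also differed in level among themselves. Per kilobase of exon, the highest median over the 8 libraries was that of Rbbp7, a histone-binding subunit encoded on the X chromosome, with 2505 normalized counts per kilobase. It was followed by its paralog Rbbp4 with 1175, by Cbx2 with 708 and by Dpy30, a shared core subunit of the KMT2 complexes, with 646. The ranges of the first 3 over the libraries did not overlap each other, whereas that of Dpy30, 539 to 732, lay within that of Cbx2, 419 to 791. The lowest were Pcgf5 with 5.11, Cbx7 with 16.2 and Phf19 with 31.1 normalized counts per kilobase.

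In most families of alternative subunits, 1 gene held most of the transcript. As a share of the family's level per kilobase, Ezh2 held 77.6% to 87.9% of the pair of catalytic PRC2 genes over the 8 libraries. Cbx2 held 63.7% to 80.2% of the 4 CBX genes, and Rnf2 held 79.4% to 86.0% of the RING pair. Among the 3 Polycomb-like genes, whose proteins help PRC2 bind chromatin, Mtf2 held 70.4% to 83.1%. The PCGF family, whose member defines the type of PRC1, was more evenly split, with 28.7% to 35.2% in Pcgf2, 20.5% to 25.2% in Pcgf3, 17.2% to 25.6% in Bmi1 (also known as Pcgf4), and only 0.294% to 0.496% in Pcgf5. Among the PHC genes, whose proteins polymerise to compact chromatin, Phc2 held 49.2% to 54.8% and Phc1 40.4% to 44.4%. Asxl1 held 84.5% to 88.8% of the ASXL pair, and Kmt2b led the 4 KMT2 genes with 33.8% to 37.2%.

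**Figure D1:**
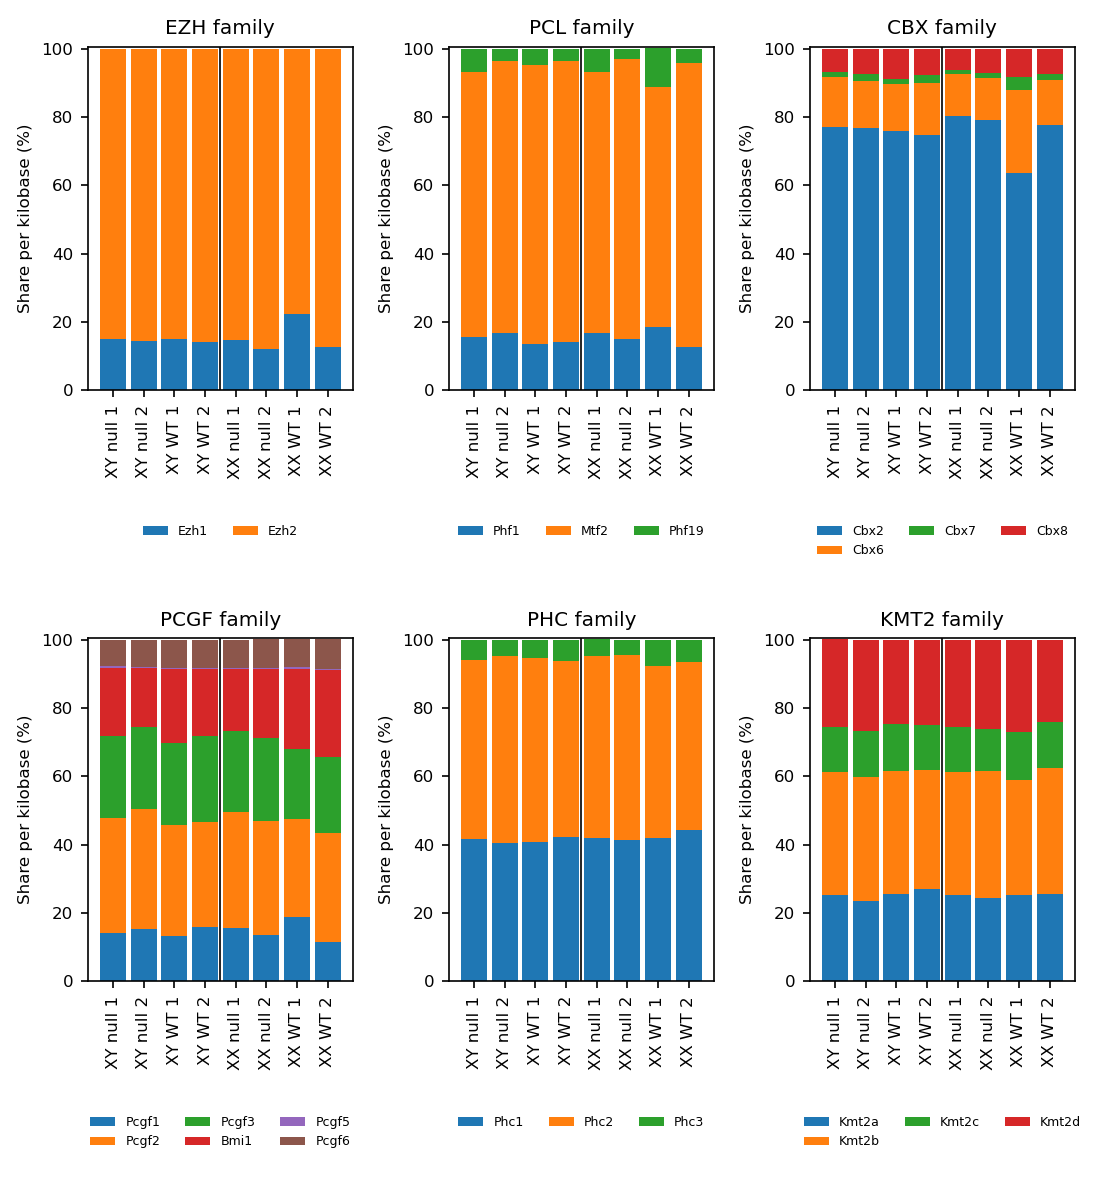
Share of each alternative subunit in its family's summed level per kilobase of exon, in percent (y axis), for each of the 8 libraries (x axis, null left of wild type (WT) within each sex). Ezh2, Mtf2 and Cbx2 held most of their families in every library, with the lowest shares, 77.6%, 70.4% and 63.7%, in XX wild type replicate 1.

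The library that departed most from these proportions was XX wild type replicate 1. The normalized count of Ezh1 relative to that of Ezh2, not divided by length, was 0.322 there, against 0.154 to 0.198 in the other 7 libraries. That of Cbx7 relative to Cbx2 was 0.0909 there, against 0.0251 to 0.0463, and that of Phf19 relative to Mtf2 was 0.142, against 0.0320 to 0.0783. In the same library the summed level of 6 adrenal cortex markers was 1626 normalized counts, against 345.9 to 590.2 in the other 7. The part of any adrenal tissue in these values was not tested. Of 6 ratios between paralogs computed per library, 2 kept the genotypes apart in both sexes, chosen here after their values were seen and not tested. Ring1 relative to Rnf2 was 0.176 and 0.156 in XY Kdm6b-null gonads, against 0.133 and 0.128 in XY wild type gonads, and the order was the opposite in XX, with 0.185 and 0.137 in XX Kdm6b-null gonads, against 0.204 and 0.198 in XX wild type gonads. Pcgf2 relative to Bmi1 was the higher in the null of both sexes, with 1.5 and 1.82 in XY Kdm6b-null gonads, against 1.33 and 1.39 in XY wild type gonads. In XX it was 1.67 and 1.45 in Kdm6b-null gonads, against 1.09 and 1.11 in wild type gonads, so that both wild type libraries of XX lay close together for this ratio.

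In XY gonads, transcripts of the Polycomb and trithorax machinery differed little between Kdm6b-null and wild type. Of the 43 genes, 20 had a positive and 23 a negative log2 fold change, with a median of -0.002, against -0.000 over the 16821 genes fitted. The median size of the change was 0.06 on the log2 scale, the same as over the 3914 genes between the lower and upper quartile of the members' levels, and 0.11 over all genes. Of the 43 fold changes, 32 were under 0.1 in size. No gene passed a Benjamini-Hochberg adjusted p of 0.05 in limma (smallest 0.86 among the 43), where 0% of all genes passed, and none was among the 72 genes, or 0.402% of 17890, called in the authors' deposited table. At an unadjusted limma p under 0.05, 1 of the 43 was higher (2.11% of all genes) and 1 was lower (2.85%). The 95% intervals were narrow: those of 42 genes lay within 1 of 0 on the log2 scale, against 75.7% of all genes, and those of 37 within 0.5 of 0, against 50.9%. The null and wild type libraries did not overlap for 7 genes that were higher in the null (16.6% of all genes) and for 7 that were lower (16.3%).

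**Figure D2:**
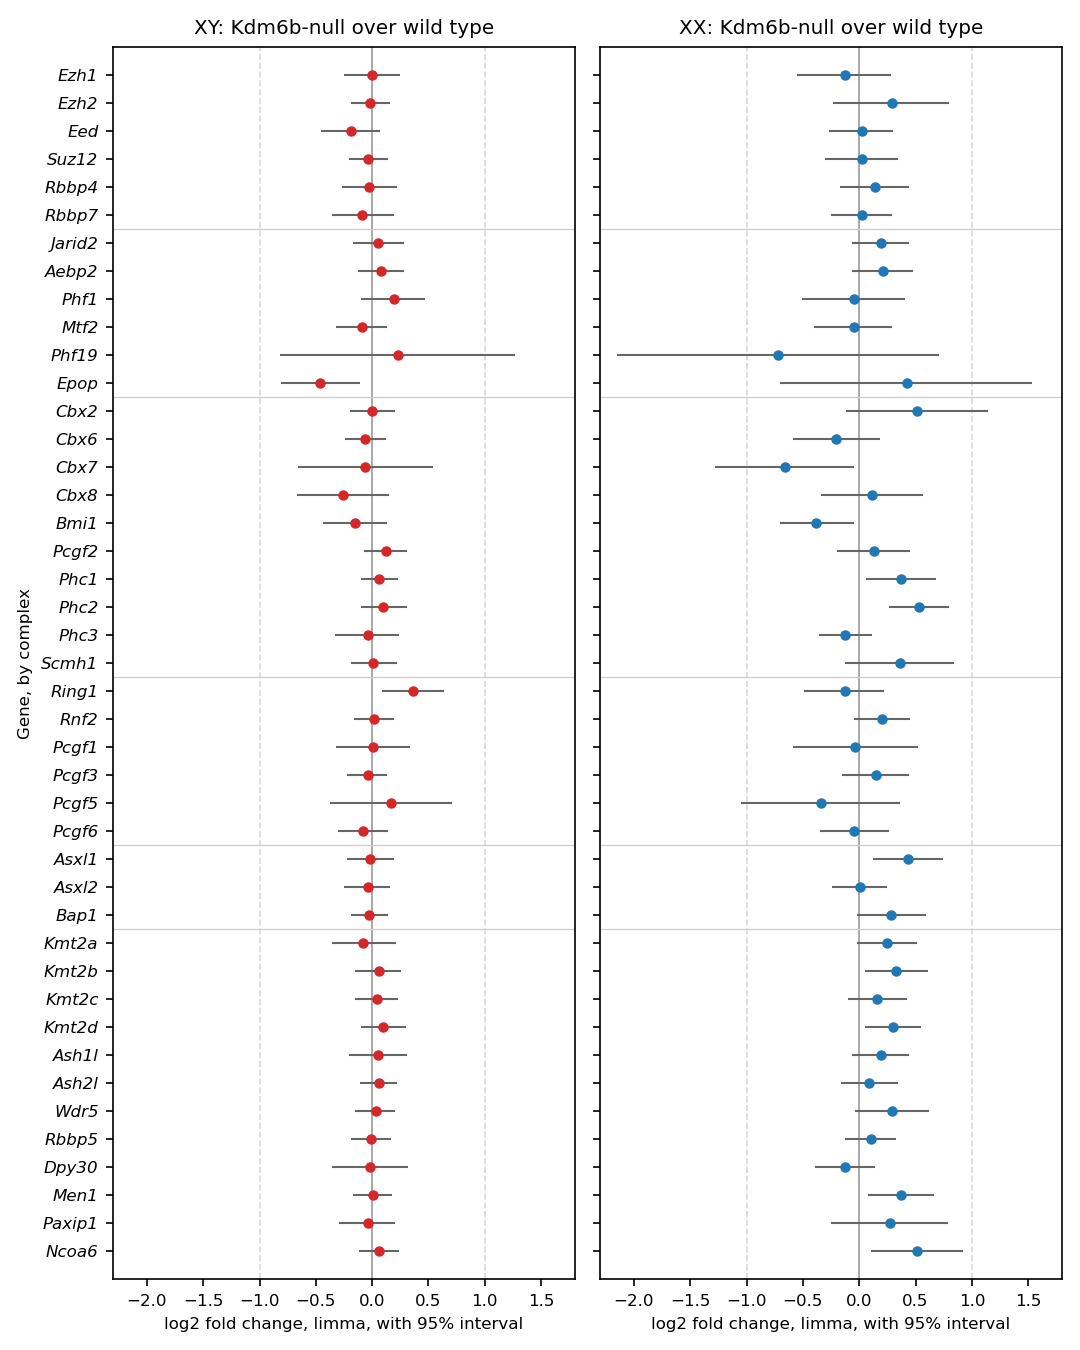
Log2 fold change of Kdm6b-null over wild type on log2(normalized count + 1), with its 95% limma interval (x axis), for each of the 43 genes (y axis, horizontal lines separate the complexes) in XY (left) and XX (right). The dashed lines stand at -1 and 1. In XY the points lie between -0.46 and 0.36 with short intervals, and in XX they range more widely, between -0.72 and 0.53.

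For the core of PRC2, all 6 fold changes in XY were slightly negative, with a median of -0.03. Ezh2, the main methyltransferase, had 4265 and 4075 normalized counts in XY Kdm6b-null gonads, against 4248 and 4183 in XY wild type gonads. Ezh1, its less active paralog, had 843.7 and 756.5 normalized counts in XY Kdm6b-null gonads, against 835.9 and 765.6 in XY wild type gonads. Suz12, the scaffold of the complex, had 2131 and 2031 normalized counts in XY Kdm6b-null gonads, against 2163 and 2106 in XY wild type gonads. The log2 fold changes of these 3 were -0.02, -0.002 and -0.04, and the null and wild type values overlapped for each. Eed, the subunit that binds trimethylated lysine 27, had 1034 and 1214 normalized counts in XY Kdm6b-null gonads, against 1242 and 1323 in XY wild type gonads. Both null libraries lay below both wild type libraries for Eed, the largest difference of the core (log2 fold change -0.19, SE 0.10, adjusted p = 1.00). Rbbp7 had 6411 and 7742 normalized counts in XY Kdm6b-null gonads, against 7349 and 7625 in XY wild type gonads, with 1 null library low and the other high.

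Among the accessory subunits of PRC2, Epop had the lowest fold change of all 43 genes in XY. Epop, a subunit that joins PRC2 with Elongin BC, had 170.7 and 186.3 normalized counts in XY Kdm6b-null gonads, against 246.3 and 245.2 in XY wild type gonads. The groups did not overlap, the log2 fold change was -0.46 (SE 0.14), and its limma p of 0.019 became an adjusted p of 0.87. The authors' deposited table gives the same fold change of -0.46 with p = 0.055. In XX, Epop ran from lowest to highest within the wild type, with 235.2 and 238.4 normalized counts in XX Kdm6b-null gonads, against 109.6 and 285.2 in XX wild type gonads. Its XX fold change of 0.42 was -0.27 without wild type replicate 1. Epop lies on chromosome 11, 28.2 Mb from Kdm6b. Of the other 5 genes on that chromosome, Pcgf2 lies 28.3 Mb away and had a log2 fold change in XY of 0.12, and Suz12, the nearest at 10.6 Mb, had -0.04. Phf1, a Polycomb-like subunit, had 375.5 and 364.4 normalized counts in XY Kdm6b-null gonads, against 337.3 and 313.0 in XY wild type gonads, both null libraries being the higher (log2 fold change 0.19, adjusted p = 1.00). Jarid2, which recruits PRC2 to chromatin, had 3751 and 3359.6 normalized counts in XY Kdm6b-null gonads, against 3272 and 3576 in XY wild type gonads, with overlap. Phf19, also a Polycomb-like subunit, varied more within the groups than between them, with 240.9 and 108.1 normalized counts in XY Kdm6b-null gonads, against 168.2 and 112.7 in XY wild type gonads.

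For canonical PRC1, the median log2 fold change in XY was -0.02 over 10 genes. Cbx2 had 2917 and 3009 normalized counts in XY Kdm6b-null gonads, against 3115 and 2821 in XY wild type gonads. Its groups overlapped, and the fold change was -0.001 with a 95% interval of -0.20 to 0.20. Lhx9, a transcription factor gene of the same gonadal somatic list, had 929.6 and 1086 normalized counts in XY Kdm6b-null gonads, against 1699 and 2228 in XY wild type gonads, with the null libraries the lower. It had the smallest limma p of the 6 genes on that list, of which 3 were lower in the null without overlap. Wt1 and Emx2 overlapped as Cbx2 did, with fold changes of -0.14 and -0.19. Cbx8, another chromodomain subunit, which lies 5.03 kb from Cbx2, had 220.4 and 250.1 normalized counts in XY Kdm6b-null gonads, against 313.6 and 253.2 in XY wild type gonads. The null libraries were the lower (log2 fold change -0.26, adjusted p = 1.00). Bmi1, the PCGF subunit that stimulates the ligase, had 1124 and 953.1 normalized counts in XY Kdm6b-null gonads, against 1219 and 1087 in XY wild type gonads. Cbx7 had 96.57 and 119.4 normalized counts in XY Kdm6b-null gonads, against 95.96 and 130.6 in XY wild type gonads. Pcgf2, whose protein takes the same place as BMI1 in the complex, had 1684 and 1732 normalized counts in XY Kdm6b-null gonads, against 1621 and 1515 in XY wild type gonads. Only the Pcgf2 groups of these 3 were apart, with the null the higher (log2 fold change 0.12, adjusted p = 1.00).

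Among the genes for the shared and variant subunits of PRC1, Ring1 had the highest fold change of the 43 in XY. Ring1, which encodes 1 of the 2 alternative ubiquitin ligases, had 471.1 and 431.3 normalized counts in XY Kdm6b-null gonads, against 348.2 and 351.9 in XY wild type gonads. Both null libraries were above both wild type libraries, which were almost equal. The log2 fold change was 0.36 (SE 0.11, limma p = 0.018, adjusted p = 0.86), and the authors' deposited table gives 0.37 with p = 0.050. Its partner Rnf2, the more abundant ligase, had 2673 and 2766 normalized counts in XY Kdm6b-null gonads, against 2623 and 2753 in XY wild type gonads, a difference of 0.02 on the log2 scale with overlapping groups. Ring1 lies at chr17:34020792-34024680 (GRCm38), near genes that differed strongly. Of the 72 genes called in XY in the authors' deposited table, 6 lie within 5 Mb of Ring1, namely Btbd9, Glo1, Dnah8, Rab11b, Rps18 and H2-D1. The nearest of them, Rps18, a ribosomal protein gene 64.8 kb away, had a log2 fold change of 0.92 in that table (adjusted p = 8.7e-14), and H2-D1 had -1.11 (adjusted p = 0.00072). In XX, 9 of the 407 genes called in that table lie within 5 Mb of Ring1. The share of all genes that lie in this window was not counted. Rps18 had a log2 fold change of -0.90 in XX there (adjusted p = 0.0013). Glo1, 3408 kb from Ring1, had 1.19 in XY (adjusted p = 4.6e-10) and -1.50 in XX (adjusted p = 2.4e-10). The part of this region in the Ring1 difference was not tested. Pcgf6 had 552.1 and 565.1 normalized counts in XY Kdm6b-null gonads, against 592.6 and 588.2 in XY wild type gonads, and Pcgf3 had 3223 and 3191 normalized counts in XY Kdm6b-null gonads, against 3253 and 3365 in XY wild type gonads. For both of these variant PRC1 subunits the null libraries were below the wild type ones, by 0.08 and 0.04 on the log2 scale (adjusted p = 1.00 for each).

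In PR-DUB, which removes ubiquitin from histone H2A, the 3 log2 fold changes in XY lay between -0.04 and -0.02. Bap1, the deubiquitinase, had 2927 and 2923 normalized counts in XY Kdm6b-null gonads, against 2998 and 2955 in XY wild type gonads. Its cofactors Asxl1 and Asxl2 had fold changes of -0.02 and -0.04, and Asxl2 had 1185 and 1085 normalized counts in XY Kdm6b-null gonads, against 1163 and 1176 in XY wild type gonads. Both Bap1 null libraries lay just below the wild type ones, and the Asxl2 groups overlapped.

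For the KMT2 and trithorax genes, the median log2 fold change in XY was 0.03, with 8 positive and 4 negative of 12. The methyltransferase genes Kmt2a and Kmt2b, paralogs that act at promoters, gave similar values in both genotypes. Kmt2a had 4042 and 3371 normalized counts in XY Kdm6b-null gonads, against 3696 and 4109 in XY wild type gonads. Kmt2b had 3315 and 2986 normalized counts in XY Kdm6b-null gonads, against 2974 and 3067 in XY wild type gonads. Kmt2c and Kmt2d, the enhancer-acting pair of paralogs, gave fold changes of 0.04 and 0.10. Kmt2c had 2549 and 2352 normalized counts in XY Kdm6b-null gonads, against 2358 and 2415 in XY wild type gonads. Kmt2d had 4909 and 4552 normalized counts in XY Kdm6b-null gonads, against 4265 and 4539.9 in XY wild type gonads. The Kmt2d null libraries were the higher, with a 95% interval of -0.10 to 0.30. Ash2l and Wdr5, core subunits shared by the KMT2 complexes, had fold changes of 0.06 and 0.03. Wdr5 had 1921 and 1969 normalized counts in XY Kdm6b-null gonads, against 1898 and 1924 in XY wild type gonads, and Ash2l had 3061 and 3024 normalized counts in XY Kdm6b-null gonads, against 2968 and 2888 in XY wild type gonads. Of these 2, the Ash2l groups did not overlap, with the null the higher.

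**Figure D3:**
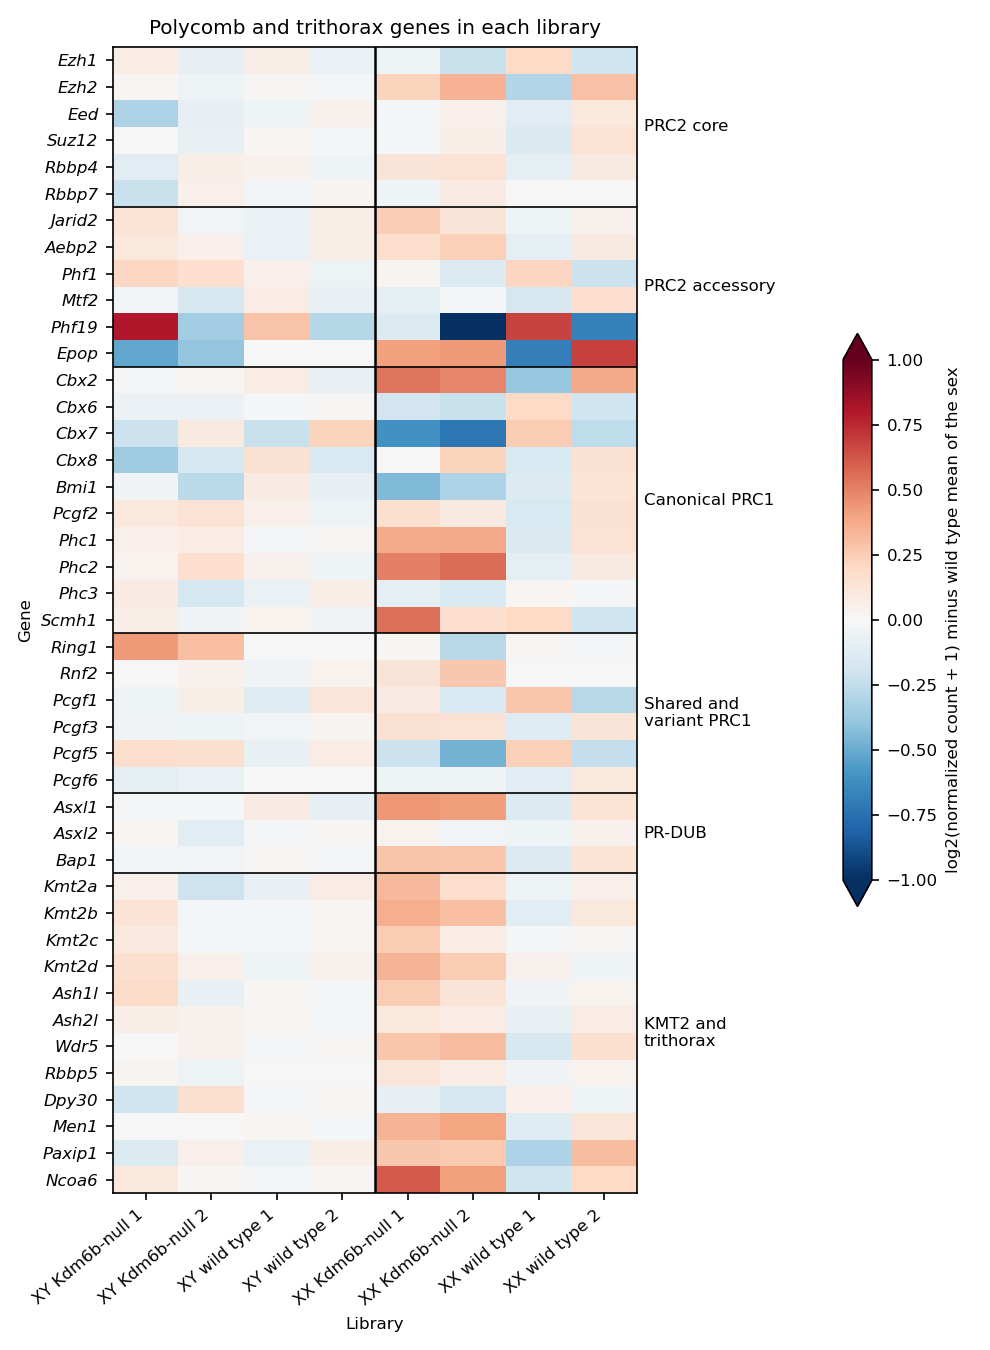
Log2(normalized count + 1) of each of the 43 genes (rows, by complex) in each library (columns, null left of wild type within each sex) minus the mean of the 2 wild type libraries of the same sex, with the colour scale ending at -1 and 1. The XY columns are mostly pale, with Phf19, Epop and Ring1 the darkest. The XX Kdm6b-null columns are mostly above 0, and XX wild type replicate 1 and replicate 2 differ for many genes.

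In XX gonads, most of these genes had higher values in Kdm6b-null than in wild type, among them 11 of the 12 KMT2 and trithorax genes, by amounts that leaned on 1 wild type library. Of the 43 log2 fold changes, 30 were positive and 13 negative, with a median of 0.14. The median was 0.001 over the 17028 genes fitted and 0.10 over the 3944 genes between the lower and upper quartile of the members' levels. No gene passed an adjusted p of 0.05 in limma (smallest 0.26 among the 43), where 0% of all genes passed. In the authors' deposited table, 1 of the 43, Phc2, was among the 407 genes called, or 2.77% of 14704. At an unadjusted limma p under 0.05, 7 were higher (9.34% of all genes), namely Phc2, Asxl1, Men1, Ncoa6, Kmt2b, Kmt2d and Phc1, and 2 were lower (4.65%), namely Bmi1 and Cbx7. The libraries did not overlap for 20 genes that were higher in the null (27% of all genes) and 4 that were lower (22.5%). The 95% intervals were wider than in XY: those of 38 genes lay within 1 of 0 on the log2 scale (69.2% of all genes) and those of 19 within 0.5 of 0 (31.2%).

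The XX result leaned on XX wild type replicate 1, in which 29 of the 43 genes had their lowest value of the 4 XX libraries, against 36.4% of all genes. The 2 XX wild type libraries differed by a median of 0.27 on the log2 scale over the 43 genes, against 0.07 to 0.11 in the other 3 groups. Without replicate 1 the median of the 43 was 0.05 with 25 positive and 18 negative, and limma called 621 genes, or 3.69%, among them Phc2 and Bmi1. Without XX wild type replicate 2 the median was 0.21, and limma called 3550 genes, or 20.9%, among them 16 of the 43. In both of these fits the lone wild type library is assumed to vary like the null pair. The counts of genes that did not overlap were 23 higher and 11 lower without replicate 1, against 40.3% and 38.1% of all genes. The scaling also bears on the direction: with the libraries rescaled to the same total, the median of all genes was -0.064 and that of the 43 was 0.07, with 26 positive and 17 negative. Fold changes in XX ran with exon length over all genes, with medians of -0.08, 0.01 and 0.06 for short, middle and long genes, and 23 of the 43 were in the long group. The part of length in the XX result was not tested.

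Among the KMT2 and trithorax genes, nearly all were higher in the XX null libraries. Of 12, 11 had a positive log2 fold change, with a median of 0.26, against 0.10 for genes at the members' levels. In 10 both null libraries exceeded both wild type libraries, as in 27% of all genes. Without XX wild type replicate 1, 10 of 12 were positive and the median was 0.15. Kmt2a had 3926 and 3552 normalized counts in XX Kdm6b-null gonads, against 3028 and 3263 in XX wild type gonads. Kmt2b had 3218 and 3098 normalized counts in XX Kdm6b-null gonads, against 2334 and 2695 in XX wild type gonads. Kmt2c had 2463 and 2174 normalized counts in XX Kdm6b-null gonads, against 2054 and 2084 in XX wild type gonads. All 3 were higher in both null libraries, by 0.25, 0.33 and 0.16 on the log2 scale, or 0.19, 0.23 and 0.15 without wild type replicate 1. Kmt2d had 4766 and 4489 normalized counts in XX Kdm6b-null gonads, against 3876 and 3652 in XX wild type gonads, a difference of 0.30 (SE 0.10, adjusted p = 0.32). It is 1 of the genes that were not lowest in XX wild type replicate 1, and its difference was 0.34 without that library. Ncoa6, a subunit of the KMT2C and KMT2D complexes, had 2811 and 2444 normalized counts in XX Kdm6b-null gonads, against 1597 and 2114 in XX wild type gonads. Men1, which encodes menin, the subunit particular to the KMT2A and KMT2B complexes, had 2024 and 2092 normalized counts in XX Kdm6b-null gonads, against 1468 and 1734 in XX wild type gonads. Wdr5 had 2064 and 2114 normalized counts in XX Kdm6b-null gonads, against 1527 and 1907 in XX wild type gonads. The null libraries were the higher for each, with fold changes of 0.51, 0.37 and 0.29 (adjusted p = 0.31, 0.31 and 0.39), and wild type replicate 1 was the lowest for each. Without that library the fold changes were 0.31, 0.25 and 0.13. Dpy30 was the exception among the 12, with 764.3 and 717.3 normalized counts in XX Kdm6b-null gonads, against 839.2 and 779.9 in XX wild type gonads, lower in both null libraries (log2 fold change -0.13, adjusted p = 0.60, and -0.07 without wild type replicate 1).

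For canonical PRC1 in XX the 10 genes split, with 6 positive and 4 negative and a median of 0.12. Without XX wild type replicate 1 the split turned to 4 positive and 6 negative, with a median of -0.01. Phc2 had 4277 and 4433 normalized counts in XX Kdm6b-null gonads, against 2837 and 3202 in XX wild type gonads. Both null libraries exceeded both wild type libraries by a wide margin, whereas in XY it had 4052 and 4437 in XY Kdm6b-null gonads, against 4072 and 3833 in XY wild type gonads. The XX log2 fold change was 0.53 (SE 0.11, limma p = 0.0034, adjusted p = 0.26), and the authors' deposited table gives 0.53 with an adjusted p of 0.0080. Without XX wild type replicate 1 it was 0.44 (limma adjusted p = 0.030), and without replicate 2 it was 0.62 (adjusted p = 0.0044). Phc1, its paralog, had 2530.1 and 2546 normalized counts in XX Kdm6b-null gonads, against 1774 and 2166 in XX wild type gonads, also without overlap (log2 fold change 0.37, adjusted p = 0.32, and 0.23 without wild type replicate 1). The third paralog, Phc3, went the other way, with 969.6 and 934.5 normalized counts in XX Kdm6b-null gonads, against 1057 and 1024 in XX wild type gonads, a difference of -0.13 (adjusted p = 0.56), or -0.10 without wild type replicate 1. Bmi1 had 1001 and 1095 normalized counts in XX Kdm6b-null gonads, against 1236 and 1494 in XX wild type gonads. Both null libraries were lower, with a log2 fold change of -0.38 (SE 0.13, adjusted p = 0.32), and wild type replicate 2, not replicate 1, was the farthest from them. Without XX wild type replicate 1 the Bmi1 change was -0.51 (adjusted p = 0.036).

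The CBX genes differed among themselves in XX, and wild type replicate 1 held the lowest or the highest XX value of each of the 4. Cbx2 had 3366 and 3258 normalized counts in XX Kdm6b-null gonads, against 1782 and 3021 in XX wild type gonads. The null libraries were the higher, but wild type replicate 1 was far below the other 3 libraries, and the log2 fold change of 0.51 had a 95% interval of -0.12 to 1.14 (limma adjusted p = 0.41, and in the authors' deposited table p = 0.049 with an adjusted p of 0.38). The Cbx2 fold change was 0.13 without wild type replicate 1 (adjusted p = 0.37) and 0.89 without replicate 2 (adjusted p = 0.0021), so that its size rested on 1 library. The gonadal somatic list had 6 of 6 positive fold changes in XX, Cbx2 itself among them and Lhx9 with only 0.01. Its sum, Cbx2 included, was between 12793 and 12939 normalized counts in XX Kdm6b-null gonads, against 9945 to 10277 in XX wild type gonads. The separation of these sums therefore holds the Cbx2 values themselves, and a sum without Cbx2 was not computed. The part of the list in the Cbx2 value was not tested. Cbx7, a chromodomain subunit like CBX2, had 88.69 and 81.83 normalized counts in XX Kdm6b-null gonads, against 162.0 and 113.3 in XX wild type gonads. It was lower in both null libraries (log2 fold change -0.66, SE 0.24, adjusted p = 0.34), with wild type replicate 1 again the farthest, and the fold change was -0.41 without it. Cbx7 overlaps Apobec3, which is transcribed from the other strand at 0.1 of its mean level or more, and the labels do not say whether the counting used strand. The same holds for Mtf2, Rnf2, Asxl1, Asxl2 and Ash1l with their own overlapping genes. Cbx6 was highest in wild type replicate 1 too, with 1284 and 1261 normalized counts in XX Kdm6b-null gonads, against 1690.0 and 1275 in XX wild type gonads, and its fold change of -0.21 was -0.002 without that library. That of Cbx8 was 0.11, or -0.04 without it.

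**Figure D4:**
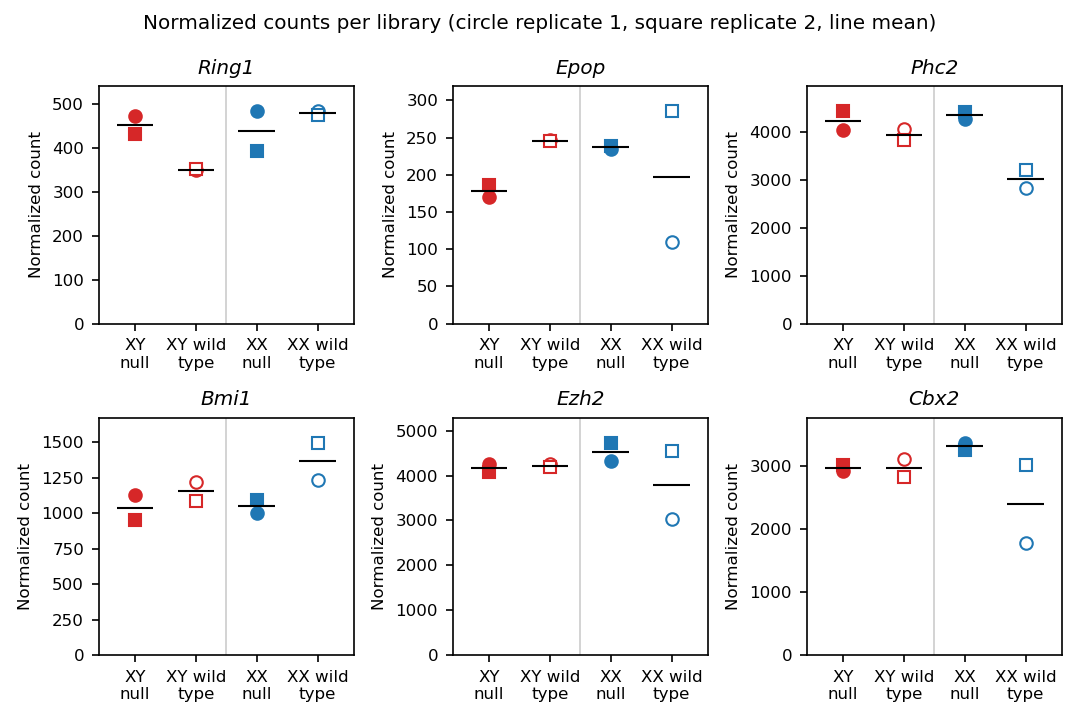
Normalized counts (y axis, from 0) of 6 genes in each library, by sex and genotype (x axis, null left of wild type). Filled symbols are Kdm6b-null, open symbols wild type, circles replicate 1, squares replicate 2 and lines the mean of 2. Ring1 and Epop are apart in XY, Phc2 and Bmi1 in XX, and the XX wild type values of Ezh2 and Cbx2 are far apart from each other.

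PR-DUB in XX had 3 positive fold changes, or 2 positive and 1 negative without wild type replicate 1. Asxl1 had 3994 and 3962 normalized counts in XX Kdm6b-null gonads, against 2693 and 3255 in XX wild type gonads. Bap1 had 3228 and 3201 normalized counts in XX Kdm6b-null gonads, against 2409 and 2904 in XX wild type gonads. Both were higher in both null libraries, by 0.43 (SE 0.12, adjusted p = 0.29) and 0.28 (adjusted p = 0.38), and lowest in wild type replicate 1. Without that library the fold change was 0.29 for Asxl1 and 0.15 for Bap1. Asxl2 had 1119 and 1069.8 normalized counts in XX Kdm6b-null gonads, against 1057 and 1128 in XX wild type gonads, with overlapping groups and a fold change of 0.003, or -0.04 without that library.

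PRC2 in XX was nearly level in its core, with a median of 0.02 over 6 genes, of which 5 were positive, or 3 without wild type replicate 1. Ezh2 had 4329.8 and 4726 normalized counts in XX Kdm6b-null gonads, against 3025 and 4539.7 in XX wild type gonads. Ezh1 had 822.1 and 726.4 normalized counts in XX Kdm6b-null gonads, against 973.1 and 736.4 in XX wild type gonads. Wild type replicate 1 was the lowest for Ezh2 and the highest for Ezh1, while wild type replicate 2 lay beside the null libraries for both, and the fold changes of 0.29 and -0.13 were within the spread between replicates (adjusted p = 0.55 and 0.74). Both turned sign without replicate 1, to -0.01 for Ezh2 and 0.07 for Ezh1. Eed had 1167 and 1221 normalized counts in XX Kdm6b-null gonads, against 1096 and 1269 in XX wild type gonads. Suz12 had 2031 and 2139.7 normalized counts in XX Kdm6b-null gonads, against 1856 and 2271 in XX wild type gonads. Both overlapped, with fold changes of 0.02 each, and without replicate 1 these were -0.09 for Eed and -0.12 for Suz12. Rbbp4 had 10512 and 10673 normalized counts in XX Kdm6b-null gonads, against 9065 and 10239 in XX wild type gonads, with the null libraries the higher by 0.14 (adjusted p = 0.63), or 0.05 without replicate 1. Among the accessory genes, Jarid2 had 3577 and 3309.6 normalized counts in XX Kdm6b-null gonads, against 2928 and 3121 in XX wild type gonads, and Aebp2, a cofactor that stimulates PRC2, had 1513 and 1578 normalized counts in XX Kdm6b-null gonads, against 1253 and 1425 in XX wild type gonads. These 2 were higher in both null libraries, by 0.19 and 0.21 on the log2 scale (adjusted p = 0.44 and 0.43), or 0.14 and 0.12 without replicate 1. Phf19 again varied most, with 212.3 and 93.95 normalized counts in XX Kdm6b-null gonads, against 373.5 and 145.7 in XX wild type gonads, and its log2 fold change of -0.72 had a 95% interval of -2.15 to 0.71, and was -0.04 without replicate 1.

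Of the shared and variant PRC1 genes, 2 were positive and 4 negative in XX, with a median of -0.04. Rnf2 had 2605 and 2868 normalized counts in XX Kdm6b-null gonads, against 2367 and 2391 in XX wild type gonads. Its null libraries were the higher, by 0.20 (SE 0.10, adjusted p = 0.41), or 0.19 without wild type replicate 1. Ring1 had 482.3 and 393.0 normalized counts in XX Kdm6b-null gonads, against 482.2 and 473.4 in XX wild type gonads, a difference of -0.13 (adjusted p = 0.69) that was opposite in sign to the one in XY, and was -0.12 without wild type replicate 1. Pcgf3 had 3149.9 and 3133 normalized counts in XX Kdm6b-null gonads, against 2598 and 3099 in XX wild type gonads, with the null libraries the higher by 0.15 (adjusted p = 0.60), which was 0.02 without wild type replicate 1 and 0.27 without replicate 2. Pcgf5, the least abundant of the 43 per kilobase, had 60.79 and 50.51 normalized counts in XX Kdm6b-null gonads, against 83.43 and 59.68 in XX wild type gonads, with overlap and a fold change of -0.34, or -0.11 without wild type replicate 1.

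The genes not described so far had small fold changes in XY: 0.01 for Scmh1, a canonical PRC1 partner, 0.01 for Pcgf1, a variant PRC1 subunit, 0.05 for Ash1l, a trithorax-group methyltransferase, -0.01 for Rbbp5, a core KMT2 subunit, and -0.04 for Paxip1, a subunit of the KMT2C and KMT2D complexes. In XX the log2 fold change was 0.36 for Scmh1, -0.04 for Pcgf1, 0.19 for Ash1l, 0.10 for Rbbp5 and 0.27 for Paxip1. Without wild type replicate 1 it was 0.55 for Scmh1, 0.24 for Pcgf1, 0.16 for Ash1l, 0.06 for Rbbp5 and -0.04 for Paxip1. Both null libraries were above both wild type libraries for Ash1l and Rbbp5, and the groups overlapped for the other 3. Mtf2 had -0.09 in XY and -0.05 in XX, or -0.22 in XX without wild type replicate 1, with overlap in both sexes.

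The difference between the effects in the sexes was tested in 1 fit of all 8 libraries. The XY effect minus the XX effect was positive for 11 and negative for 32 of the 43, against 8133 and 8810 of the 16943 genes fitted. Its median was -0.13 over the 43 and -0.015 over all genes. For genes at the members' levels, the separate effects had medians of -0.003 in XY and 0.10 in XX. The median of the 43 was -0.07 without XX wild type replicate 1, with 13 positive and 30 negative. With the libraries rescaled to the same total it was -0.07, with 17 positive and 26 negative, against 0.048 over all genes. In the reported fit no gene passed an adjusted p of 0.05 (0% of all genes, smallest 0.57 among the 43). At an unadjusted p under 0.05, 1 of the 43 was higher (2.70% of all genes), Ring1 with a difference of 0.50 (SE 0.18, adjusted p = 0.57), and 4 were lower (5.71%). These 4 were Phc2 with -0.43, Asxl1 with -0.44, Men1 with -0.36 and Ncoa6 with -0.45 (adjusted p between 0.57 and 0.59). Without XX wild type replicate 1 the differences were 0.48 for Ring1, -0.34 for Phc2, -0.31 for Asxl1, -0.24 for Men1 and -0.25 for Ncoa6. Rps18 and Glo1, which lie 64.8 and 3408 kb from Ring1, were likewise higher in the XY null and lower in the XX null. The part of that region in the Ring1 value was not tested. Of the 43 genes, 15 were positive in both sexes, 8 negative in both, 15 negative in XY and positive in XX, and 5 positive in XY and negative in XX.

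Other genes of the same machinery, taken from lists of names, also had higher medians in XX than in XY, a difference that was not tested for the lists. Genes at the members' levels leaned the same way, with medians of -0.003 in XY and 0.10 in XX. The lean was thus not particular to the lists. A background at the levels of these lists, or of the BAF genes below, was not computed, with or without XX wild type replicate 1. Whether the lists exceed such a background was not tested. The 16 partners of variant PRC1 had a median log2 fold change of 0.02 in XY (11 positive, 5 negative) and 0.21 in XX (13 positive, 3 negative), which was 0.10 without XX wild type replicate 1 (11 positive, 5 negative). Bcorl1, a BCOR-like co-repressor gene, had 1239.6 and 1154 normalized counts in XX Kdm6b-null gonads, against 660.7 and 918.5 in XX wild type gonads, and Kdm2b, whose protein brings variant PRC1 to unmethylated CpG, had 1765 and 1674 normalized counts in XX Kdm6b-null gonads, against 1219 and 1436 in XX wild type gonads. Both were higher in both XX null libraries (log2 fold changes 0.62 and 0.38, adjusted p = 0.29 and 0.31, and 0.38 and 0.26 without wild type replicate 1). The 6 SET1 genes, a sister family of lysine 4 methyltransferase complexes, had medians of -0.02 in XY and 0.15 in XX, where all 6 were positive, also without XX wild type replicate 1, when the median was 0.09. Of these, Setd1b had 2127 and 2028 normalized counts in XX Kdm6b-null gonads, against 1364 and 1681 in XX wild type gonads.

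The 12 BAF genes, remodellers that oppose Polycomb, had a median of 0.07 in XY (11 positive, 1 negative) and 0.37 in XX (11 positive, 1 negative), or 0.21 without XX wild type replicate 1 (10 positive, 2 negative), and 2 of the 12 were called in XX in the authors' deposited table. The pair was Smarca4, the ATPase, with 12719 and 11751 normalized counts in XX Kdm6b-null gonads, against 6525 and 8886 in XX wild type gonads, and Arid1a, with 10762 and 9883 normalized counts in XX Kdm6b-null gonads, against 5518 and 7485 in XX wild type gonads. Each had a log2 fold change of 0.67 in that table (adjusted p = 0.0097 for each). In both, wild type replicate 1 was the lowest of the XX libraries, and wild type replicate 2 was also below both null libraries. In limma the fold change of each was 0.68, or 0.46 without wild type replicate 1.

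Genes known to be silenced by Polycomb outside their own lineages had low summed levels in 7 of the 8 libraries and a higher one in XX wild type replicate 2. Of 12 such loci, 2 passed the filter in XY and 4 in XX, Olig2 was at 0 in all 8 libraries, and Nkx2-1 was at 0 in 7 libraries. The summed level of the 12 was 49.75 and 68.96 normalized counts in XY Kdm6b-null gonads, against 45.51 and 98.69 in XY wild type gonads. In XX it was 67.76 and 58.59 in Kdm6b-null gonads, against 87.31 and 416.7 in wild type gonads. In XX wild type replicate 2, Nkx2-1 had 224.6 and Lhx2 107.2 normalized counts, most of that sum. Cdkn2a, a cell cycle inhibitor and a classical target of Bmi1, had 0.9754 and 2.059 normalized counts in XY Kdm6b-null gonads, against 3.957 and 2.991 in XY wild type gonads, and 2.989 and 3.031 in XX Kdm6b-null and 6.791 and 0 in XX wild type gonads, levels of a few reads in which no difference was detectable at this depth. T, also called Brachyury, and Lhx2 were the 2 genes of the list that could be fitted in XY, with log2 fold changes of -0.48 and -0.31 (adjusted p = 1.00 each). In XX, Pax6 had 2.989 and 2.020 normalized counts in XX Kdm6b-null gonads, against 19.40 and 24.28 in XX wild type gonads, lower in both null libraries at a level of 2 or 3 reads (limma adjusted p = 0.26). It passed the filter in XX only through its wild type values. In XY it did not pass, and the order was the opposite. Its XY normalized counts were 9.754 and 10.29 in Kdm6b-null gonads, against 4.946 and 2.991 in wild type gonads.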

How the data were processed

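RNA of 8 libraries, 2 for each sex and genotype, was sequenced with paired reads of 100 bases after poly(A) selection, per the labels' protocols. Tools that the authors used include, per the submitters' processing notes, DESeq2 2.11.40.8, STAR 2.7.11, featureCounts 2.0.8 and cutadapt 4.9, with mouse build GRCm38 (mm10). The strand setting and the annotation release are not stated. For each gene the authors deposited a signal, its normalized count, scaled separately for XX and XY (48440 genes in each table). The authors' deposited comparisons give log2 fold changes with p-values, and a Wald score that plays no part here. Nonzero values of each library (100% of them) were multiples of 1 step, to within 1e-06 of a count.

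Log2(normalized count + 1) was fitted with limma 3.58.1 (R 4.3.3) with a variance trend, in genes with a mean of at least 10, separately in XY and XX and jointly for the difference, with Benjamini-Hochberg adjustment over all genes and a threshold of 0.05. Every fold change and adjusted p that is not credited to the authors' deposited table comes from these fits. The scale understates changes of low genes. The fits had 2, 2 and 4 residual degrees of freedom. The script was tested on simulated data. No count test was run here. Lengths are exon unions of GENCODE M21 on the same build. Groups came from the sample titles. The genes and lists were chosen with earlier results of these data known. Values in every library are given for 16 genes whatever their result, for the 2 genes of each complex with the smallest p in each sex, and for some others chosen after their values were seen.

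Alternatives were other pseudocounts, filters, scalings, spread models, a replicate block and leaving out each library in turn. P-values measure the spread between pooled libraries, 2 per group, which limits every test.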

Additional observations from a re-analysis of the deposited data

Results flagged for a closer look

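Pcgf3 and Bap1 were the members whose 2 null libraries both lay below the wild type libraries in XY and both above them in XX. Each of these orders alone was frequent among all genes, as given above for each sex. The share of all genes with both orders was not counted. The pattern was therefore not shown to be more frequent among the members than among other genes. The XY effect minus the XX effect was -0.19 for Pcgf3 on the log2 scale (SE 0.14, limma adjusted p = 0.72) and -0.31 for Bap1 (SE 0.14, adjusted p = 0.60), so that the difference between the sexes did not pass the threshold for either. In XY both changes were small (-0.04 and -0.03), and in XX both genes were lowest in wild type replicate 1, without which their XX fold changes of 0.15 and 0.28 were 0.02 and 0.15.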

How the results depend on the processing

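Depth limits the Polycomb target loci, most of which had a few reads, and 2 libraries per group limit every test. In XY, genes called by limma numbered 0 in the reported fit, 1 with no variance trend, 23 with the replicate block, and 0 to 2 without each library in turn, and none of the 43 was among them. In XX they numbered 0 in the reported fit, 2 with the replicate block, 10 when all 8 libraries shared 1 fit, and 0 to 3550 without each library, with 0 to 16 of the 43 called. Members were called in XX only when a wild type library was left out, 2 of 621 genes called without replicate 1 and 16 of 3550 without replicate 2. For the difference between the sexes, 0 to 43 genes were called without each library, with 0 to 1 of the 43 (Cbx2, without XX wild type replicate 2), and 0 with the replicate block. The replicate numbers were not shown to pair the libraries: same-numbered deviations correlated at 0.24 in XY and -0.06 in XX.

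The median of the 43 in XX was 0.14, 0.06 with the libraries rescaled to the same upper quartile, and 0.05 to 0.21 without each library. That of all genes was 0.001, -0.080 with the same upper quartile, and 0.005 to 0.009 without each library. Genes that did not overlap and were lower in XX numbered 7 when rescaled to the same total (29.2% of all genes), 9 when rescaled to the same upper quartile (31.3%) and 5 to 11 without each library (32.6% to 40.4%). In XY they numbered 11 to 20 higher (31.0% to 37.1% of all genes) and 11 to 20 lower (30.5% to 36.2%) without each library, since fewer libraries overlap less. These counts were added after seeing the data.

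Among the genes named by the rule, some changes reversed, most of them near 0 in the reported fit. The exceptions among these were Ezh2 (0.29), Ezh1 (-0.13) and Ring1 (-0.13) in XX. Members that the rule did not name in XX reversed too. Without wild type replicate 1, Epop went from 0.42 to -0.27 and Paxip1 from 0.27 to -0.04. Pcgf2 went from 0.13 to -0.02 and Cbx8 from 0.11 to -0.04 in that fit. In XY, rescaling to the same upper quartile gave 0.003 for Ezh1 and 0.004 for Cbx2. In XX, Eed had -0.05 and Suz12 -0.04 with the same total, and -0.06 each with the same upper quartile. Leaving out each library in XY gave ranges of -0.08 to 0.08 for Ezh1, -0.05 to 0.02 for Ezh2, -0.22 to 0.05 for Rbbp7, -0.03 to 0.13 for Jarid2, -0.07 to 0.07 for Cbx2, -0.28 to 0.16 for Cbx7, -0.02 to 0.05 for Rnf2, -0.11 to 0.02 for Asxl2, -0.21 to 0.05 for Kmt2a, -0.02 to 0.13 for Kmt2b and -0.02 to 0.10 for Kmt2c. In XX the ranges were -0.33 to 0.07 for Ezh1, -0.01 to 0.58 for Ezh2, -0.09 to 0.12 for Eed, -0.12 to 0.17 for Suz12 and -0.28 to 0.01 for Ring1. Among the genes named by the rule, 15 results in XX passed the threshold when 1 wild type library was left out, and none in another setting. The other genes named by the rule kept their sign under every alternative run. The cause of these reversals was not tested.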
